A study of Mus musculus with 9 samples.

Results

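The heat shock genes of the cytosol and the mitochondria were examined as 10 members given by symbol: the cytosolic HSP70 genes Hspa1a, Hspa1b and Hspa8, the HSP110 gene Hsph1, the HSP40 gene Dnajb1, the cytosolic HSP90 genes Hsp90aa1 and Hsp90ab1, the small heat shock gene Hspb1, and the mitochondrial chaperonin genes Hspd1 and Hspe1. All 10 members were found among the 40993 genes of the expression table. BV2 is an immortalized line of mouse microglia, and MNPs@SiO2(RITC) are nanoparticles with a cobalt ferrite core and a silica shell that carries the dye rhodamine B isothiocyanate. Polyadenylated RNA was measured in 9 libraries: 3 came from non-treated (control) cells, 3 from cells given MNPs@SiO2(RITC) at 10 µg/ml for 12 h and 3 from cells given 100 µg/ml for 12 h, and the labels write these doses as 0.01 and 0.1 µg/µl. The labels do not say whether replicates came from separate cultures, so p-values measure only the spread between these libraries, which may be technical.

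Heat shock proteins are chaperones that bind unfolded or partly folded proteins. HSP40 proteins deliver clients to HSP70, HSP110 proteins exchange its nucleotide, and HSP90 acts later on kinases, steroid receptors and other clients, while HSP60 and HSP10 form the folding chamber of the mitochondrial matrix. Heat shock factor 1 (HSF1) binds inverted repeats of GAA, the heat shock element, and raises transcription of several of these genes under heat, heavy metals and other stresses that unfold proteins. Hspa8 and Hsp90ab1 are constitutive forms, while Hspa1a and Hspa1b are stress-inducible forms.

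Promoter windows of RefSeq (GRCm38.p6), 250 bases before and 50 bases after each annotated start, were matched by symbol for 7 of the 10 members, which are all but Hspa8, Hsp90aa1 and Hsp90ab1. They were searched on both strands for 2 adjoining units of the heat shock element (GAANNTTC or TTCNNGAA) and for 3 adjoining units, which are the same letters followed by NN and by a further GAA or TTC in alternation. A match of 3 units also holds matches of 2. Across all 32851 windows, 15.1% held 2 units and 0.603% held 3. Both Hspa1a and Hspa1b held 1 match of 2 units at position -104 from the start. The 250 bases before each start are shown because both genes were almost without RNA here and share nearly all of this sequence. They lie outside any annotated gene at chr17:34972157-34972406 and chr17:34959239-34959488, both are read on the minus strand, and capitals mark the match of 2 units.
Hspa1a: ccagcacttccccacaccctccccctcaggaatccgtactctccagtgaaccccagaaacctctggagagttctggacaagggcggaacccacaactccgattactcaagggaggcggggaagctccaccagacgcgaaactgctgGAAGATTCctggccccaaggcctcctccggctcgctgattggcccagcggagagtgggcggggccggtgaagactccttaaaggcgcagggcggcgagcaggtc
Hspa1b: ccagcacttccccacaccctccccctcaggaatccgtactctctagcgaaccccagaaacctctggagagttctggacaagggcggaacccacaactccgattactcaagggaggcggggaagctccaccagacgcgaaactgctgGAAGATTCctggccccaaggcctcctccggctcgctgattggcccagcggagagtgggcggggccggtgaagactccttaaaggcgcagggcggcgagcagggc
These sequences differ at 3 of the 250 positions, and the 8 bases of the match are the same in both.

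The mitochondrial pair Hspd1 and Hspe1 starts head to head, and the window of Hspe1 and 1 of the 2 windows of Hspd1 hold the same run of heat shock units. The run is 18 bases long at chr1:55088059-55088076, with 3 matches of 2 units and 2 matches of 3 units, and overlaps an annotated exon of Hspd1. It is shown with 6 bases on each side, on the plus strand for Hspe1 and on the minus strand for Hspd1, with capitals for the run.
Hspe1: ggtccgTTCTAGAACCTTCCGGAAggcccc
Hspd1: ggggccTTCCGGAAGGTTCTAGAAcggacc
In Hsph1, each of the 2 windows held a 2-unit match at chr5:149636362-149636369 and a 13-base match of 3 units at chr5:149636288-149636300, both on the minus strand and within the annotated gene. Counted from the 2 RefSeq starts, the 2-unit match begins at -33 and -54, and the match of 3 units begins at 36 and 15. In Hspb1, chr5:135887782-135887829 on the plus strand, outside any annotated gene, held 2 separate matches of 2 units. They are shown for comparison with the longer runs, with capitals for each match.
Hsph1 upstream: gaatctTTCTCGAAggctcg
Hsph1 downstream: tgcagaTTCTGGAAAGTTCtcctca
Hspb1: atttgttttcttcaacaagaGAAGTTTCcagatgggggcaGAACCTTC
The 2 windows of Dnajb1 held 0 matches. Of these, 1 lies largely within Dnajb1 itself and overlaps its coding sequence, and the other overlaps an annotated exon of Tecr. A match describes these letters only, and no binding was measured.

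The values are FPKM as the authors deposited them, fragments divided by transcript length and by the number of mapped fragments, so levels of different genes are compared per length. Their sum over all genes ranged from 473547 to 522812 per library, and the depth, which FPKM does not give, was inferred from step sizes among low values as 12.18 to 15.02 M fragments per library. That estimate is approximate, since 78.6% of 1710 low values lay within 0.25 of a whole fragment. Of 12 microglia and macrophage markers, 10 reached a mean of 1 FPKM, with Cx3cr1 and P2ry12 near 0. Their summed level was 1339 to 1523 FPKM in control libraries, 1345 to 1434 FPKM at 10 µg/ml and 1224 to 1369 FPKM at 100 µg/ml, and the part of this shift in the results was not tested. Adgre1, the macrophage surface marker F4/80, was at 202.5 ± 4.64 FPKM in control cells and fell to 127.1 ± 8.89 FPKM at 100 µg/ml (SD, n = 3 each, log2 fold change -0.67, limma adjusted p = 0.00224). All 10 markers tested had a negative log2 fold change at 100 µg/ml against control, with a median of -0.18. Of these, 4 were lower without overlap, beside 11.4% of all genes tested, and only Adgre1 had an adjusted p under 0.05. Aif1 went from 6.536 ± 0.478 to 3.87 ± 1.08 FPKM (log2 fold change -0.65, limma adjusted p = 0.0841). Marker lists of neurons, astrocytes and oligodendrocytes summed to at most 1.44 FPKM in any library, and Rbfox3, Snap25, Aqp4 and Mog were listed at 0 in all 9.

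Among the members, Hsp90ab1 fell at 100 µg/ml and the other 6 members tested did not pass the threshold. Each gene was tested with limma on the log2(FPKM + 1) scale, all 3 groups were fitted together, and p-values were adjusted (Benjamini-Hochberg) across the 11161 genes whose mean reached 1 FPKM. A total of 7 members entered the test, and Hspa1a, Hspa1b and Hspb1 lay below the filter. At 100 µg/ml against control, 1 of the 7 members had an adjusted p under 0.05, and 2.11% of all genes tested did. That member was lower, as were 1.41% of all genes, and 0 members were higher in limma, where 0.708% of all genes were. At 10 µg/ml against control, 0 members passed in limma, as did 0% of all genes, and 1 member (Hsp90ab1) had an unadjusted p under 0.05, as did 3.28% of all genes. Between 100 and 10 µg/ml, 1 of the 7 members passed, and 0.851% of all genes did. It was again lower, as were 0.636% of all genes, and 0 members were higher in limma, where 0.215% of all genes were.

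Groups of libraries that did not overlap were also counted. At 100 µg/ml against control, 2 of the 7 members had no overlap, 1 of them lower (Hsp90ab1) and 1 higher (Dnajb1), and 23.8% of all genes had none, 11.4% lower and 12.5% higher. At 10 µg/ml against control, 1 member was without overlap (Hsp90ab1, lower), as were 10.7% of all genes, 4.61% lower and 6.14% higher. Between the doses, 2 members were without overlap, the same 2 genes in the same directions, as were 19.4% of all genes, 9.99% lower and 9.37% higher. At an unadjusted p under 0.05, 2 of the 7 members passed at 100 µg/ml against control and 2 between the doses, beside 19.4% and 14.3% of all genes.

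The median log2 fold change of the 7 members was 0.02 at 100 µg/ml, -0.03 at 10 µg/ml and 0.04 between the doses, and the median of all genes tested was -0.0016, 0.0002 and 0.0001 in the same order. In a bulk library, fewer cells that express a gene and less RNA per cell cannot be told apart.

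**Figure D1:**
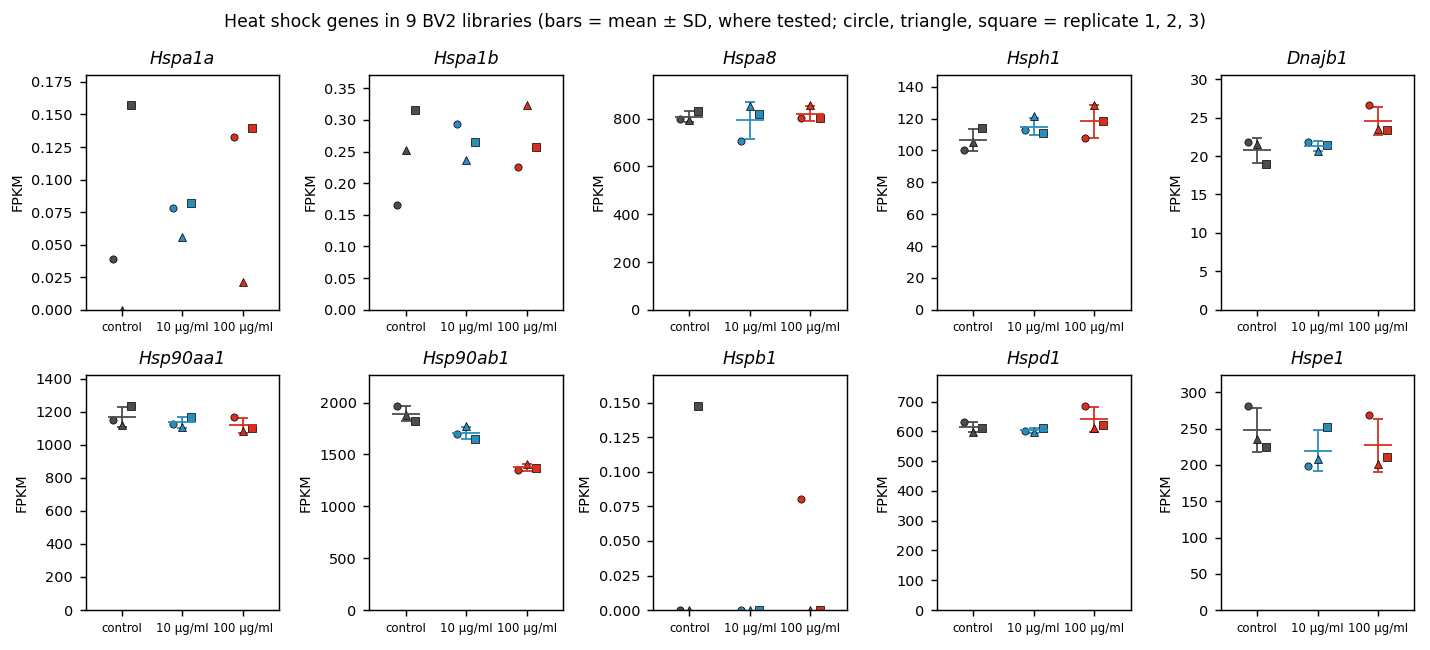
FPKM of the 10 members (vertical axes, a separate scale for each gene, all from 0) in the 3 groups. Points are libraries, with circles, triangles and squares for replicates 1, 2 and 3, and bars give the mean and SD of 3 libraries for the 7 genes tested. Hsp90ab1 steps down from 1893 to 1705 and 1374 FPKM without overlap, while Hspa1a, Hspa1b and Hspb1 reach at most 0.323 FPKM in any library.

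Hsp90ab1 encodes HSP90 beta, the constitutive cytosolic HSP90, and had the highest level of the members, at place 15 among all genes by control mean (ENSMUSG00000023944, chr17:45567775-45573271 on the minus strand). Control libraries 1, 2 and 3 had 1971, 1884 and 1824 FPKM, libraries at 10 µg/ml had 1693, 1770 and 1653 FPKM, and libraries at 100 µg/ml had 1345, 1410 and 1367 FPKM. In the deposited FPKM, every library at 100 µg/ml lay below every library at 10 µg/ml. Those in turn lay below every control library.

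The mean level of Hsp90ab1 was 1893 ± 73.9 FPKM in control cells, 1705 ± 59.5 FPKM at 10 µg/ml and 1374 ± 32.8 FPKM at 100 µg/ml (SD, n = 3 each). At 100 µg/ml it fell by 27.4%, with a log2 fold change of -0.46 (standard error 0.06, 95% interval -0.59 to -0.34, limma adjusted p = 0.00765). At 10 µg/ml the difference was -9.91%, with a log2 fold change of -0.15 (95% interval -0.28 to -0.03) that had an unadjusted limma p of 0.0239 and an adjusted p of 1. Under quantile normalization this difference turned positive (0.16 on the log2 scale). Between 100 and 10 µg/ml it fell by 19.4%, with a log2 fold change of -0.31 (95% interval -0.44 to -0.19, limma adjusted p = 0.0466). The call between the doses lies close to the threshold and was lost in 8 of 9 fits that left out a library, all but the fit without replicate 1 at 100 µg/ml, with limma adjusted p from 0.0459 to 0.201. The call against control was lost in 1 of 9, without control replicate 2 (adjusted p = 0.0561, log2 fold change -0.46). In each comparison, 3 of the 9 fits left out a library of the group not compared. Such a fit cannot move the fold change and alters only the estimate of the spread.

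The fall of Hsp90ab1 was of moderate size but at a high level. Of the 157 genes called lower at 100 µg/ml it had the highest control level, and its fall was the 78th in size on the log2 scale. Of the 34 genes tested with at least 1000 FPKM in control cells, 1 gene was called, and this was Hsp90ab1. Beside this count, 2.11% of all genes tested were called. It has 0 near-identical copies in the annotation, where a copy is another gene with at least 95% identity over at least 300 nt of transcript. Quantile normalization, which forces the libraries onto a common distribution, gave a log2 fold change of -0.24 with an adjusted p of 0.498 at 100 µg/ml against control in limma, and adjusted p ranged from 0.00425 to 0.498 over the 11 alternatives that left out no single library.

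**Figure D2:**
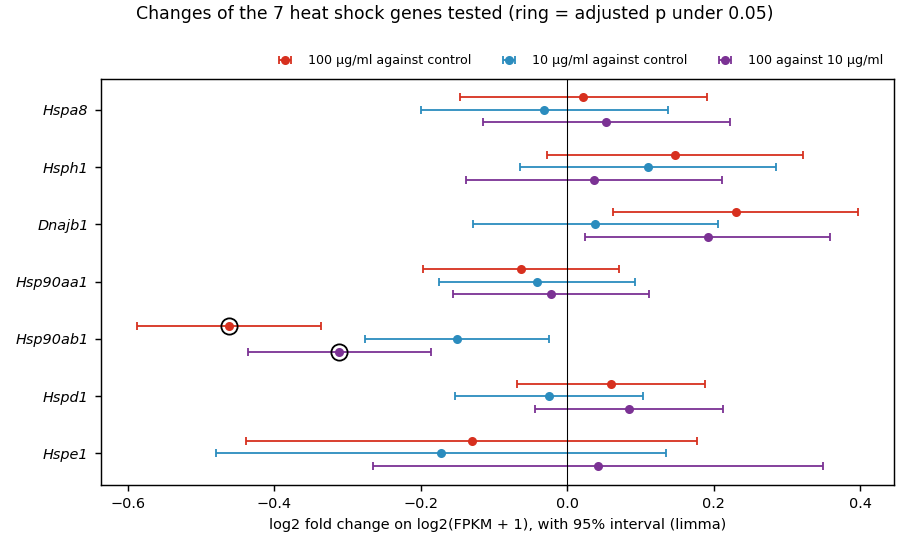
Log2 fold changes on log2(FPKM + 1) of the 7 genes tested (horizontal axis) with 95% intervals from limma, for 100 µg/ml against control (red), 10 µg/ml against control (blue) and 100 against 10 µg/ml (purple). Rings mark adjusted p under 0.05, and both rings belong to Hsp90ab1, at -0.46 and -0.31. The interval of Dnajb1 at 100 µg/ml lies above 0 without passing adjustment.

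Hsp90aa1 encodes HSP90 alpha, the more inducible cytosolic HSP90 (ENSMUSG00000021270, chr12:110690605-110702728 on the minus strand). Its libraries had 1148, 1119 and 1237 FPKM in control cells, 1128, 1105 and 1170 FPKM at 10 µg/ml, and 1168, 1084 and 1100 FPKM at 100 µg/ml. The 3 groups overlapped. The log2 fold change was -0.06 at 100 µg/ml (95% interval -0.20 to 0.07, limma adjusted p = 0.606) and -0.04 at 10 µg/ml (95% interval -0.18 to 0.09, adjusted p = 1).

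The balance of the HSP90 genes rests on the same values of Hsp90ab1. The ratio of Hsp90ab1 to Hsp90aa1 was 1.716, 1.684 and 1.474 in control libraries, 1.501, 1.602 and 1.412 at 10 µg/ml, and 1.151, 1.301 and 1.242 at 100 µg/ml. All ratios at 100 µg/ml lay below all others, while those at 10 µg/ml overlapped with control. The ratios were not tested. The sum of both genes was 3061 ± 57.8 FPKM in control cells, 2840 ± 30.5 FPKM at 10 µg/ml and 2492 ± 23 FPKM at 100 µg/ml (SD, n = 3 each). The FPKM of all 10 members summed to 4858 ± 98.7, 4593 ± 115 and 4323 ± 81.3 in the same order. Hsp90ab1 made up -518.7 of the difference of -535.7 FPKM in that sum at 100 µg/ml, and the other 9 members summed to 2966 FPKM in control cells and 2949 FPKM at 100 µg/ml. As a percent of the FPKM sum of each library, the 10 members were at 0.9626 ± 0.0525 in control cells and 0.9492 ± 0.0248 at 10 µg/ml. At 100 µg/ml they were at 0.882 ± 0.034 (SD, n = 3 each). This percent overlapped between 10 µg/ml and control, and at 100 µg/ml it lay below all others.

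**Figure D3:**
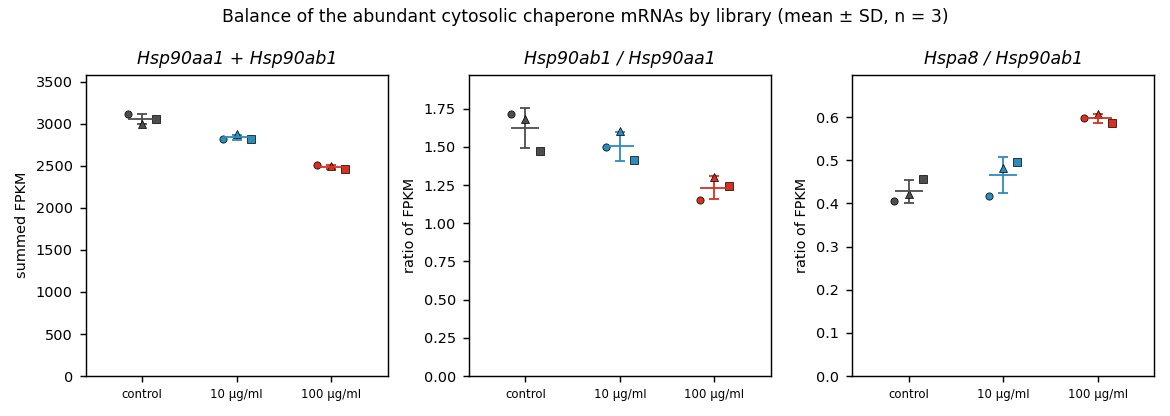
Summed FPKM of Hsp90aa1 and Hsp90ab1, the ratio of Hsp90ab1 to Hsp90aa1 and the ratio of Hspa8 to Hsp90ab1 (vertical axes from 0) by group. Points are libraries and bars are the mean and SD of 3 libraries. In all 3 panels the libraries at 100 µg/ml stand apart from the other 6, and all 3 quantities contain Hsp90ab1.

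Hspa8 encodes HSC70, the constitutive cytosolic HSP70 (ENSMUSG00000015656, chr9:40800984-40805200 on the plus strand). Its libraries had 799.6, 793.2 and 833.4 FPKM in control cells, 706.8, 853.4 and 820.5 FPKM at 10 µg/ml, and 804.0, 856.6 and 802.6 FPKM at 100 µg/ml. The groups overlapped, and library 1 at 10 µg/ml was the lowest of the 9. The log2 fold change was 0.02 at 100 µg/ml (95% interval -0.15 to 0.19, limma adjusted p = 0.905) and -0.03 at 10 µg/ml (95% interval -0.20 to 0.14, adjusted p = 1). The ratio of Hspa8 to Hsp90ab1 was 0.4279 ± 0.0263 in control cells and 0.5975 ± 0.0103 at 100 µg/ml (SD, n = 3 each), without overlap and not tested.

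The inducible HSP70 genes Hspa1a (ENSMUSG00000091971, chr17:34969190-34972156) and Hspa1b (ENSMUSG00000090877, chr17:34956436-34959238), whose upstream sequences are given above, were near the limit of detection. Hspa1a was listed at 0.0388, 3.49e-09 and 0.157 FPKM in control libraries, at 0.0781, 0.0556 and 0.0823 FPKM at 10 µg/ml, and at 0.133, 0.0216 and 0.140 FPKM at 100 µg/ml. This corresponds to about 0 to 6.6 fragments per library at the estimated depths. Hspa1b was listed at 0.165, 0.253 and 0.316 FPKM in control libraries, at 0.294, 0.237 and 0.265 FPKM at 10 µg/ml, and at 0.226, 0.323 and 0.258 FPKM at 100 µg/ml, or about 5.7 to 12.5 fragments. The groups overlapped for both genes, and neither gene was above 0.323 FPKM in any library. Small differences between the groups could not be detected at this depth. Their transcripts are 99.2% identical over 2201 nt, so the split of reads between them is uncertain. Their sum was 0.2039, 0.2525 and 0.4733 FPKM in control libraries, 0.3724, 0.2925 and 0.3469 FPKM at 10 µg/ml, and 0.3585, 0.3448 and 0.3973 FPKM at 100 µg/ml, again with overlap. Gm20481, which is identical to Hspa1a over 379 nt, was listed at 0.376 FPKM in control library 2 and at or near 0 in the other 8. Added to the sum, it brings that library to 0.628 FPKM, the highest of the 9.

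Hsph1 encodes HSP105, an HSP110 protein that exchanges the nucleotide of HSP70 (ENSMUSG00000029657, chr5:149614287-149636376 on the minus strand). Its libraries had 100.3, 105.2 and 114.3 FPKM in control cells, 112.6, 121.4 and 111.1 FPKM at 10 µg/ml, and 107.7, 128.4 and 118.7 FPKM at 100 µg/ml. The groups overlapped. The log2 fold change was 0.15 at 100 µg/ml (95% interval -0.03 to 0.32, limma adjusted p = 0.344) and 0.11 at 10 µg/ml (95% interval -0.06 to 0.28, adjusted p = 1). Over the 9 libraries, the genes whose log2(FPKM + 1) was most like that of Hsph1 were Bicd2 (Pearson r 0.968), Prrc2a (0.967) and Nfix (0.96), a description over libraries that share groups.

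Dnajb1 encodes the main stress-inducible cytosolic HSP40 (ENSMUSG00000005483, chr8:83608175-83611902 on the plus strand). Its libraries had 21.82, 21.53 and 18.9 FPKM in control cells, 21.86, 20.62 and 21.42 FPKM at 10 µg/ml, and 26.61, 23.51 and 23.38 FPKM at 100 µg/ml. Every library at 100 µg/ml lay above the other 6, which overlapped. The mean was 20.75 ± 1.61 FPKM in control cells and 24.5 ± 1.83 FPKM at 100 µg/ml (SD, n = 3). The log2 fold change of 0.23 had a 95% interval of 0.06 to 0.40 and an unadjusted limma p of 0.0127, but the adjusted p was 0.141. Against 10 µg/ml the log2 fold change was 0.19 (95% interval 0.02 to 0.36, limma adjusted p = 0.284).

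Hspb1 encodes the small heat shock protein HSP25 (ENSMUSG00000004951, chr5:135887919-135889563 on the plus strand). It was listed at 0.148 FPKM in control library 3, at 0.0801 FPKM in library 1 at 100 µg/ml and at 0 in the other 7 libraries. These values correspond to about 1.95 and 1.12 fragments. With so few fragments, no comparison between the groups can be made.

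Hspd1 encodes the mitochondrial chaperonin HSP60 (ENSMUSG00000025980, chr1:55077835-55088243 on the minus strand). Its libraries had 631.8, 598.1 and 611.3 FPKM in control cells, 600.0, 597.7 and 611.4 FPKM at 10 µg/ml, and 686.8, 611.2 and 622.5 FPKM at 100 µg/ml. The groups overlapped, and library 1 at 100 µg/ml was the highest. The log2 fold change was 0.06 at 100 µg/ml (95% interval -0.07 to 0.19, limma adjusted p = 0.615) and -0.03 at 10 µg/ml (95% interval -0.15 to 0.10, adjusted p = 1). The genes most like Hspd1 over the 9 libraries were Gm10232 (Pearson r 0.99), Mrps6 (0.98) and Eif3m (0.975).

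Hspe1 encodes HSP10, the lid of the HSP60 chamber (ENSMUSG00000073676, chr1:55088132-55091307 on the plus strand, overlapping the start of Hspd1). Its libraries had 281.9, 235.9 and 224.9 FPKM in control cells, 198.8, 208.3 and 251.9 FPKM at 10 µg/ml, and 268.6, 201.4 and 210.4 FPKM at 100 µg/ml. On the log2 scale this gave the largest standard error of the 7 members tested, 0.14, and the groups overlapped. The log2 fold change was -0.13 at 100 µg/ml (95% interval -0.44 to 0.18, limma adjusted p = 0.648) and -0.17 at 10 µg/ml (95% interval -0.48 to 0.14, adjusted p = 1). The ratio of Hspd1 to Hspe1 was 2.498 ± 0.241 in control cells, 2.771 ± 0.307 at 10 µg/ml and 2.850 ± 0.256 at 100 µg/ml (SD, n = 3 each), and the ratios overlapped.

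Within groups, Hspd1 and Hspe1 lay on the same side of their group mean in 9 of 9 libraries, and Hsph1 and Dnajb1 did so in 0 of 9. These are the extremes of 21 pairs of members, picked after the values were seen, and the other 19 pairs did so in 2 to 7 of 9. The libraries with high Hspe1 were control 1, 10 µg/ml library 3 and 100 µg/ml library 1, which were 0.19, 0.20 and 0.25 above their group mean on the log2 scale. The longest transcript of Hspe1 has 964 nt. In the same 3 libraries, the 1131 genes with no transcript of 1000 nt or more had median deviations of 0.085, 0.058 and 0.198, and the part of this shift in the values of Hspe1 was not tested. The genes with longer transcripts had medians between -0.008 and 0.007 in all libraries.

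Some members shared sequence with copies at which the table also lists RNA. Beside Hspd1, its pseudogene Hspd1-ps3 (98.955% identity over 1722 nt) was listed at 525.6, 523.9 and 559.8 FPKM on average in control cells, at 10 µg/ml and at 100 µg/ml, or 86.7% of the level of Hspd1 itself. The copies of Hspa8, of which Gm15459 was the highest at 254.1 FPKM in control cells, summed to 417.6, 425.2 and 442.4 FPKM in the same order. Those of Hsp90aa1, mostly Gm12346, summed to 338.1, 343.8 and 347.2 FPKM. Reads of a gene and its copy can be divided between them by the authors' correction for reads with several places, so these levels are uncertain. With copies added, the log2 fold changes at 100 µg/ml were 0.04 for Hspa8, -0.04 for Hsp90aa1 and 0.07 for Hspd1, and none passed the threshold.

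**Figure D4:**
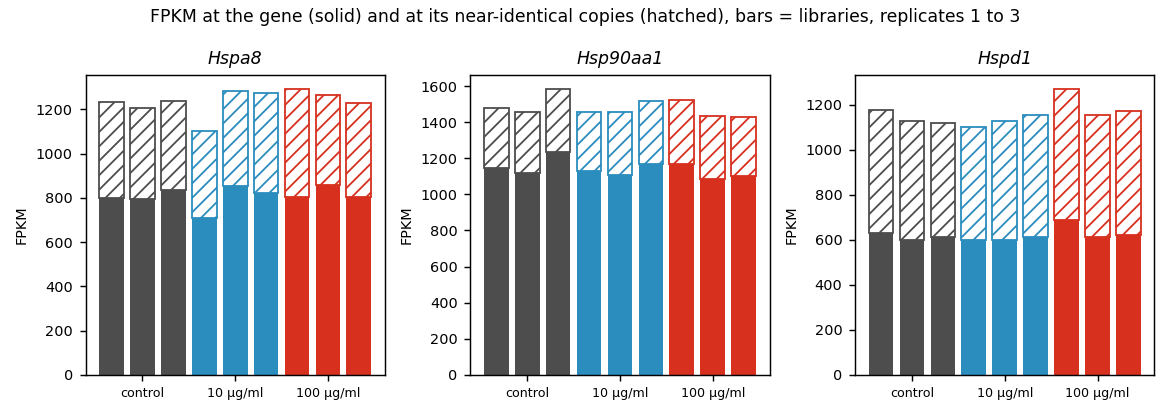
FPKM of Hspa8, Hsp90aa1 and Hspd1 (solid) with the summed FPKM of their near-identical copies stacked on top (hatched) in each of the 9 libraries (horizontal axis, replicates 1 to 3 within each group). The copies of Hspd1 add most, 86.7% of the level of the gene, and with copies Hspa8 runs from 1101 to 1293 FPKM over the libraries.

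Around the members, 7 lists of related genes were read: HSP70 family and exchange factors, HSP90 co-chaperones, DnaJ proteins, small heat shock proteins, mitochondrial chaperones and proteases, the chaperonin TRiC with prefoldin, and heat shock factors and regulators. Of their 107 genes, 91 were tested, and 0 passed the adjusted threshold of limma in any of the 3 comparisons. At 100 µg/ml against control, 13 of the 91 had a positive and 7 a negative fold change at an unadjusted p under 0.05, where 19.4% of all genes passed in either direction. Their log2 fold changes had a median of 0.04, and 55 were above 0 and 36 below. At 10 µg/ml the median was -0.004, and 3 positive and 1 negative fold changes had an unadjusted p under 0.05, beside 3.28% of all genes. Between the doses it was 0.032, and 8 positive and 3 negative fold changes had an unadjusted p under 0.05, beside 14.3% of all genes.

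By list, the highest gene in control cells is given with its value at 100 µg/ml against control. In the HSP70 list, St13 was at 212.3 FPKM (log2 fold change -0.04). Of the 14 genes tested, 9 were above 0 and 5 below, 2 and 2 of them at an unadjusted p under 0.05. In the HSP90 co-chaperone list, Fkbp4, a co-chaperone of steroid receptors, was at 158.7 FPKM (log2 fold change 0.11), and of 17 genes tested 9 were above 0 and 8 below, 1 and 2 of them at that unadjusted threshold. In the DnaJ list, Dnaja2 was at 126.4 FPKM (log2 fold change 0.19, limma adjusted p = 0.11), and of 17 genes tested 7 were above 0 and 10 below, 2 and 2 of them at that unadjusted threshold. No client kinase or receptor of HSP90 was examined.

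Hspa9, the mitochondrial HSP70 that feeds the HSP60 chamber, was at 378.2 FPKM in control cells (log2 fold change 0.10, limma adjusted p = 0.234), and of the 16 genes tested in its list 11 were above 0 and 5 below, 3 and 0 of them at an unadjusted p under 0.05. Tcp1, a TRiC subunit, was at 579.9 FPKM (log2 fold change 0.15, limma adjusted p = 0.243), and of the 14 genes tested with it 10 were above 0 and 4 below, 2 and 0 of them at an unadjusted p under 0.05. Ubb, a polyubiquitin gene, was at 124.2 FPKM (log2 fold change 0.20, limma adjusted p = 0.301), and of the 11 genes tested among factors and regulators 8 were above 0 and 3 below, 3 and 0 of them at an unadjusted p under 0.05. These counts stand beside the 19.4% of all genes at that unadjusted threshold, and 0 genes of these lists passed adjustment in limma. HSF1 itself, from Hsf1, was at 24.52 FPKM in control cells and 25.77 FPKM at 100 µg/ml (log2 fold change 0.07, limma adjusted p = 0.575). Of the 9 small heat shock genes, 2 were tested, and the higher of them, Hspb11, which is also a subunit of the intraflagellar transport machinery, went from 7.735 to 4.511 FPKM (log2 fold change -0.70, limma adjusted p = 0.0867).

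Dnajc7, a DnaJ protein that binds both HSP70 and HSP90, was chosen after its values were seen. It had the smallest adjusted p of these lists at 100 µg/ml against control, at 0.0527 in limma, with 89.08 ± 4.13 FPKM in control cells and 71.0 ± 1.88 FPKM at 100 µg/ml (SD, n = 3) and a log2 fold change of -0.32. For comparison, of 15 chaperones of the endoplasmic reticulum, all tested, 0 passed the threshold at 100 µg/ml, and 13 were below 0, with a median log2 fold change of -0.08. Of these, 4 had an unadjusted p under 0.05, beside 19.4% of all genes.

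**Figure D5:**
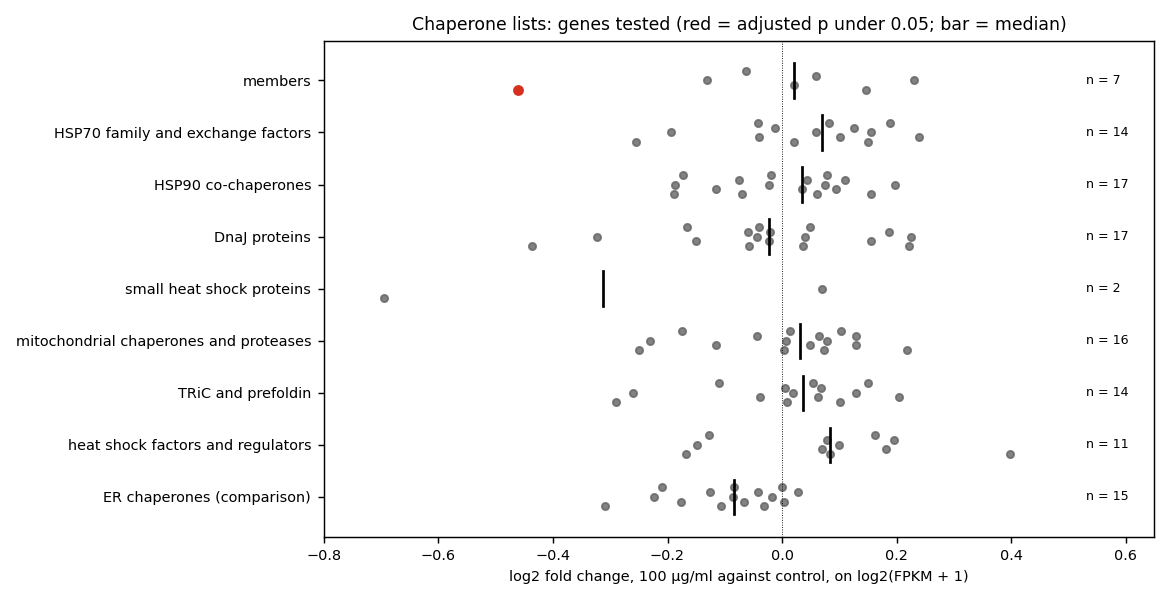
Log2 fold changes at 100 µg/ml against control on log2(FPKM + 1) (horizontal axis) for the genes tested among the members, the 7 related lists and the chaperones of the endoplasmic reticulum. Each point is a gene, red points have an adjusted p under 0.05, and black bars are medians. The red point is Hsp90ab1 at -0.46, and the medians of the lists with more than 2 genes tested lie between -0.08 and 0.08.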

How the data were processed

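The 9 BV2 libraries were grouped by title. The authors aligned reads with TopHat and deposited FPKM per gene, estimated with Cufflinks 2.1.1 (per the submitters' processing notes) on Ensembl release 77 with corrections for fragment bias and for reads with several places. The kit is described as stranded and mRNA was enriched on oligo(dT) beads. The table has 0 columns of samples outside the series. Exact 0 values may be failed estimates, since 9 genes were above 1000 FPKM in one library and at 0 in another.

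Values were tested as log2(FPKM + 1) for genes whose mean reached 1 FPKM, and 3 comparisons were tested with limma 3.58.1 (R 4.3.3, eBayes with trend, Benjamini-Hochberg adjustment), also tested on simulated data. Copies were found with BLAST 2.17.0 in GENCODE M21 transcripts, at 95% identity or more over 300 nt or more. Tables were made with Python 3.11.15, pandas 2.3.3, numpy 2.4.6 and matplotlib 3.10.9. Named genes are all members, listed genes with an adjusted p under 0.05, the highest gene of each list, the 3 genes most like Hsph1 and Hspd1, and copies named after a member, such as Hspd1-ps3. Hsf1, Dnajc7, the markers and the copies Gm15459, Gm12346 and Gm20481 stand outside that rule. The members and lists were chosen with earlier results of these data known. Correlations of deviations between same-numbered libraries ranged from -0.088 to 0.152 and were not all over 0.1, so the numbers were not taken to pair the libraries.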

Additional observations from a re-analysis of the deposited data

How the results depend on the processing

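Member fold changes were computed under 20 alternatives, 9 of which left out a library. Of 420 values, 389 kept their direction and side of the threshold, 18 kept only the direction, and 13 changed sign. All 18 were lost calls of Hsp90ab1, the only member called. At 100 µg/ml against control its call was lost in 3 of the 11 alternatives that left out no single library, and in 1 of 9 others. Between the doses it was lost in 6 of 11 and in 8 of 9. Most of the 389 values came from comparisons that had no call to lose. The count of members called at 100 µg/ml against control went from 1 to 0 without a filter (Hsp90ab1 adjusted p = 0.0842 in limma), with quantile normalization (0.498) and with only the 6 libraries compared (0.0760), and from 0 to 1 over the fits that left out a library. Between the doses it went from 1 to 0 with a pseudocount of 0.01 (0.0605), no filter (0.273), quantile normalization (0.348), a replicate block (0.100), eBayes without trend (0.0547) and 6 libraries (0.203), and from 0 to 1 with a library left out. Listed pathway genes called at 100 µg/ml were 1 with a pseudocount of 0.01, 1 with a filter at 5 FPKM, 3 with quantile normalization, 1 with median-of-ratios rescaling, and 0 to 1 with a library left out. All genes called numbered 106 and 13 with the replicate block, at 100 µg/ml against control and between the doses; with 6 libraries they numbered 22, 1 at 10 µg/ml, and 6. No filter gave 4 at 10 µg/ml. With a library left out they ranged from 31 (without control replicate 2) to 539 (without replicate 1 at 100 µg/ml), from 0 to 2 at 10 µg/ml, and from 8 to 191. Under quantile normalization, log2 fold changes at 10 µg/ml turned positive for Hspa8 (0.0604), Hsp90aa1 (0.0796), Hsp90ab1 (0.1642) and Hspd1 (0.0591).

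With a library left out, log2 fold changes crossed 0 at 10 µg/ml for Hspa8 (-0.0863 to 0.0495), Hsp90aa1 (-0.0713 to 0.0008) and Dnajb1 (-0.0245 to 0.0744). At 100 µg/ml they crossed 0 for Hspa8 (-0.0093 to 0.0434), and between the doses for Hspa8 (-0.0279 to 0.1079), Hsp90aa1 (-0.0544 to 0.0005), Hsph1 (-0.0241 to 0.1017) and Hspe1 (-0.0855 to 0.1439). Hsp90ab1 stayed between -0.49 and -0.43 at 100 µg/ml against control. Leaving out a library of the group not compared could not move a fold change and altered only the estimate of the spread. These fits hold fewer libraries, and the number of all genes called at 100 µg/ml against control both fell and rose in them. It ranged from 31 to 539, beside 236 with all libraries. The causes were not tested. The numbers of replicates were not taken to pair the libraries, though the correlations of same-numbered libraries cannot exclude pairing. The replicate block changed no call of a member other than Hsp90ab1. Hspa1a and Hspa1b summed stayed below the filter and gave no test. Summing members with their copies, chosen after seeing the data, changed no call.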
